A study of Saccharomyces cerevisiae with 4 samples.

Results

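The reading frames described here are those of the Ty retrotransposons of budding yeast (Saccharomyces cerevisiae), which encode the Gag structural protein and the longer Gag-Pol polyprotein. They were chosen by name: 60 listed frames of the 6706 rows in each expression table. By the annotation of the R64 (sacCer3) reference they comprise 20 Gag and 20 Gag-Pol frames of Ty1, 7 and 7 of Ty2, 1 Gag and 2 Gag-Pol frames of Ty3, and 1 of each of Ty4. The remaining listed frame, YIL082W, has no entry in that annotation and was kept out of all sums by class. It is 873 bases long, as is the Ty3 Gag frame YGR109W-A, and the Ty3 sums below do not hold it. The annotated frames lie in 30 elements. The choice used no measured value of these libraries beyond earlier knowledge of the data, and frames with equal estimated counts in all libraries were summed, which gave 56 units.

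The study compared a W-303 wild type strain, JRY2334, with strain JKY690, in which tRNA genes (tDNAs) of chromosome III had been removed, and asked how those genes affect chromosome structure and function. Both strains were MATa with the alleles ura3-1, trp1-1 and ade2-1. The wild type also carried can1-100 and mutations in LEU2 and HIS3. The tDNA-less strain carried the chromosome III alleles t8D+t9D::LEU2 and T1+T7::HIS3 together with t7D, t6D, t5D, t4D, t3D, t1D and t0D. Cultures in early log phase in YPD, a rich medium, were harvested, and total RNA was sequenced by a directional protocol in 2 biological replicates of each strain. Each strain is a single construct, so a difference between them cannot be told apart from other differences between these 2 lines.

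Ty elements are long terminal repeat retrotransposons. RNA polymerase II copies an element into one long RNA, which serves as messenger for its proteins and as the genome that is packed into virus-like particles and reverse transcribed. Gag is made by reading the first frame, and Gag-Pol, which holds protease, integrase and reverse transcriptase, is made when ribosomes shift frame near the end of Gag. Ty1, Ty2 and Ty4 belong to the copia group and Ty3 to the gypsy group, and in yeast new copies of Ty1 and Ty3 insert mainly upstream of genes copied by RNA polymerase III, such as tRNA genes. In most listed elements the Gag frame lies inside the Gag-Pol frame, so a read from the shared part belongs to either row. The rows YAR010C and YAR009C of Ty1, and YJL114W and YJL113W of Ty4, do not overlap in the reference. Counts per row depend on how the authors' program divided shared reads.

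The first sequences show where Gag and Gag-Pol part, because most levels of Gag against Gag-Pol below rest on this structure. In Ty4 the site lies inside YJL113W, past the end of the Gag row YJL114W. Each is 37 bases of R64, 5′ to 3′ on the strand given, with the 7 bases of the known frameshift signal in capitals. They lie at chrV:447701-447737 (minus strand), chrVIII:547909-547945 (minus), chrIII:86377-86413 (plus), chrVII:708447-708483 (plus) and chrX:198984-199020 (plus).
YER138C (Ty1): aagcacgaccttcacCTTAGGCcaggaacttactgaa
YHR214C-B (Ty1): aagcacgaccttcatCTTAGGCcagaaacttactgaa
YCL019W (Ty2): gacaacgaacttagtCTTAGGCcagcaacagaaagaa
YGR109W-B (Ty3): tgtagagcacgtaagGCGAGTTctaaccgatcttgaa
YJL113W (Ty4): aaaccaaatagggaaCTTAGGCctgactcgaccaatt
The letters CTTAGGC stood at the annotated join of 19 of the 20 listed Ty1 Gag-Pol frames, of all 7 Ty2 frames and of the Ty4 frame, and GCGAGTT at that of both Ty3 frames. YAR009C, a truncated Ty1 frame, has no join in the annotation.

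Few letters tell one copy from another. Among all reading frames of the reference, 13 of the 20 Ty1 Gag frames held no 31-base word that was special to their element. Of the 20 Ty1 Gag-Pol frames, 5 held no word special to their element, and the median was 31 such words of a median of 5238. Ty2 Gag-Pol frames held a median of 126, and the Ty3 and Ty4 Gag-Pol frames at least 852. Thus few single 31-base words set most Ty1 and Ty2 copies apart. The most were 311 in a Ty1 and 532 in a Ty2 Gag-Pol frame. Words that span an annotated join depend on where that join was placed. For copies without any, the level depends on how the authors' program divided reads. Classes share words too. Of the words of a listed Ty1 Gag-Pol frame, 37.2% (YDR261C-D) to 62.3% (YAR009C) also occurred in frames outside Ty1. For listed Ty2 Gag-Pol frames it was 17.2% (YBL100W-B) to 19.2% (YDR210W-B). Whether longer stretches within a read told copies apart was not examined.

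The next stretches are those that set apart YHR214C-B and YCL019W, the Gag-Pol frames of the clearest rise and the clearest fall described below. YDR098C-A and YDR316W-A+YGR161C-C changed more but hold no word special to their element. Capitals mark the bases held by every 31-base word of the stretch, and the bases opposite them in the copy set beside it. The copies were set side by side by the best match without gaps. For YHR214C-B (chrVIII:548691-548748 and chrVIII:545414-545474, minus strand) the copy set beside it is YER138C (chrV:448483-448540 and chrV:445206-445266, minus). For YCL019W (chrIII:86719-86779, plus) it is YFL002W-A (chrVI:139821-139881, plus).
YHR214C-B, stretch 1: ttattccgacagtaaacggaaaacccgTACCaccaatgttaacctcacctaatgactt
YER138C, stretch 1: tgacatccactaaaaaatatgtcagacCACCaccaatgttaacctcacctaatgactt
YHR214C-B, stretch 2: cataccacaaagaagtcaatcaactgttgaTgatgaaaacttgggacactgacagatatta
YER138C, stretch 2: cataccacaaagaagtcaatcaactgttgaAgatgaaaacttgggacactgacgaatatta
YCL019W: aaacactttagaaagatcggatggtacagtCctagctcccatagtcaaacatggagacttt
YFL002W-A: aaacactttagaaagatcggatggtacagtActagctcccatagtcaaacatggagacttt
The YHR214C-B stretches hold 59 words special to that element and, matched without gaps, equal YER138C at 38 of 58 and at 58 of 61 bases. In stretch 1 all bases after the first capital are equal, and the unequal ones lie before. A gapped alignment of YHR214C-B and YER138C was not made. The Gag frame of the same element, YHR214C-C, is 1437 bases long against 1323 for YER137C-A, the Gag frame of the YER138C element. YCL019W holds 126 words special to its element in 4 stretches, 1 of which spans the annotated frameshift, and the one printed equals YFL002W-A at 60 of 61 bases. The strains are W-303 and the reference is another strain, so whether each copy stands at its reference position in these cells was not tested.

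The wild type libraries held 12478934 and 19756815 estimated counts and the tDNA-less libraries 12940879 and 14461257, of which the 4 largest rows took 30.6% to 45.1%. The Ty frames listed took 3.29% and 2.66% of counts in the wild type and 2.87% and 3.05% in the tDNA-less strain. As checks of the labels, HIS3 stood at 17.6 and 12.8 TPM (the authors' level per transcript length) in the wild type and at 523 and 648 TPM in the tDNA-less strain. LEU2, also a marker of the tDNA-less genotype, went the other way, from 82.8 and 109 TPM to 40.1 and 40.6 TPM. The MATa pheromone receptor STE2 stood at 122 to 142 TPM in all libraries and the MATα receptor STE3 at 0.570 to 0.829 TPM, while the MATα pheromone gene MF(ALPHA)2 had 7.13 to 13.8 TPM. The tables list reading frames, and tRNA genes were not analysed here. In such bulk RNA, fewer cells that express an element and less RNA per cell cannot be told apart.

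Ty1 supplied most Ty RNA, and the total of no class was called different between the strains. The summed level of the Ty1 frames was 4787 and 3784 TPM in the wild type and 4414 and 4761 TPM in the tDNA-less strain, which is 91.3% to 93.6% of the level of all listed frames. Ty2 frames summed to 441 and 351 TPM against 302 and 319 TPM. On this scale, on which the median row changed by -0.11 (log2), both tDNA-less values for Ty1 lay between the wild type values and both for Ty2 below them. In CPM, the counts tested, the strains overlapped in both classes, with Ty2 at 2726 and 1936 CPM in the wild type and 2057 and 1950 CPM in the tDNA-less strain. Ty3 frames summed to 3.65 and 2.64 TPM against 2.71 and 3.44 TPM, and Ty4 frames to 1.33 and 0.734 TPM against 0.896 and 0.895 TPM. Within each library the listed Ty1 frames therefore stood 10.8 to 14.9 times above those of Ty2. Sums by class also depend on how the authors' program divided reads that fit both Ty1 and Ty2. Listed Ty2 frames stood 92.7 to 133 times above Ty3, and Ty3 2.73 to 3.84 times above Ty4. Outside these sums, the unlisted Ty4 frame YHL009W-B stood at 1.24 and 0.662 TPM in the wild type and at 0.606 and 0.638 TPM in the tDNA-less strain. YIL082W, also outside them, stood at 5.70 and 7.65 TPM against 2.70 and 0 TPM. In both wild type libraries it exceeded the Ty3 sum, so the Ty3 ratios and the Ty3 comparison hold only without it.

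**Figure D1:**
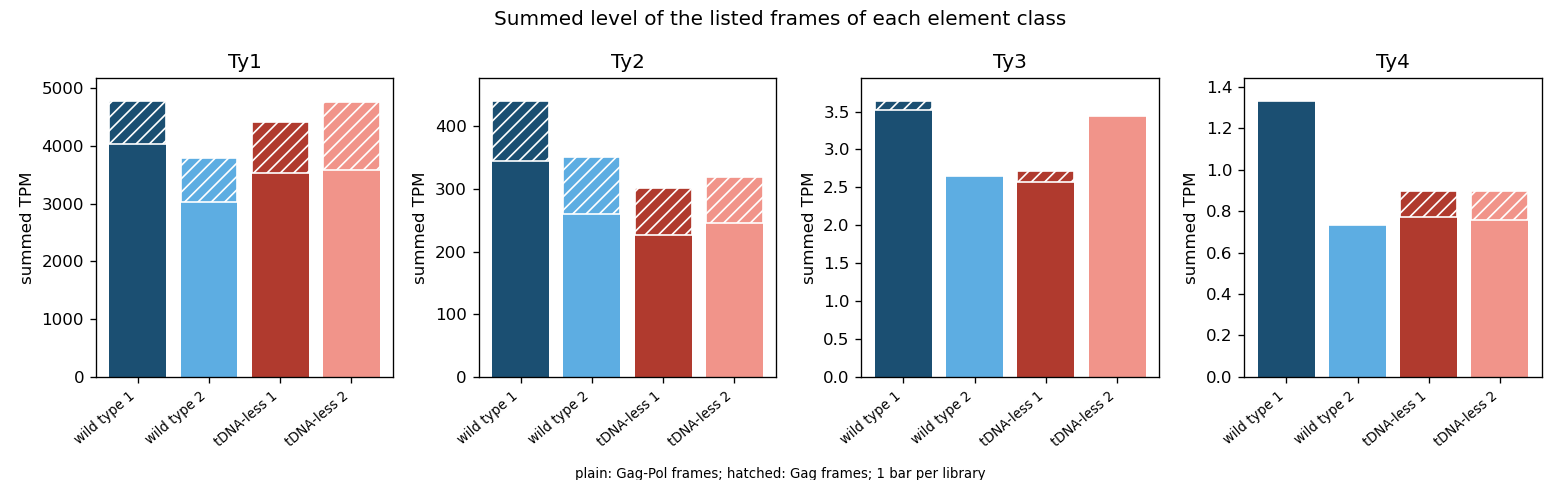
Summed level of the listed frames of each class (vertical axis, TPM, from 0, a separate scale for each class) in each of the 4 libraries (1 bar per library). Plain parts are Gag-Pol frames and hatched parts Gag frames. The Ty1 bars run from 3784 to 4787 TPM with no separation of the strains. Both tDNA-less Ty2 bars, at 302 and 319 TPM, stand below both wild type bars on this scale, whose median row shifted by -0.11 (log2), and not in CPM.

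Counts per class were tested with edgeR's quasi-likelihood test, fitted over all rows with Benjamini-Hochberg adjustment over all of them (adjusted p under 0.05 is called). The log2 fold change of tDNA-less over wild type was 0.17 ± 0.16 (SE, n = 2 per strain, adjusted p = 0.727) for Ty1 and -0.22 ± 0.13 (adjusted p = 0.572) for Ty2 in that edgeR fit. It was 0.12 ± 0.18 (adjusted p = 0.863) for Ty3 and -0.24 ± 0.33 (adjusted p = 0.843) for Ty4. The wild type replicates differed from each other by 1.41 times in Ty1 and Ty2 CPM (counts per library size, scaled by edgeR's trimmed mean of M-values), and the tDNA-less replicates by 1.10 and 1.05 times. Without wild type 2 the Ty1 value turned to -0.056, and the Ty2 value became -0.44 and was called (adjusted p = 0.0196). Without wild type 1 the Ty2 value was 0.041. The Ty1 value was 0.40 without the 2 frames of the YER138C element (adjusted p = 0.282, edgeR) and 0.082 without those of the YHR214C-B element (adjusted p = 0.9002, edgeR), settings chosen after seeing the data.

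In Ty1 the Gag sum was called and the Gag-Pol sum was not; the difference between the 2 changes was not tested in the count fit. The Ty1 Gag frames summed to 1253 and 1160 CPM in the wild type and to 1647 and 1962 CPM in the tDNA-less strain, so both tDNA-less libraries were the higher. This was a rise by 0.58 ± 0.10 on the log2 scale (SE, adjusted p = 0.0121 by edgeR's quasi-likelihood test). The Ty1 Gag-Pol frames summed to 29224 and 20391 CPM against 29028 and 25994 CPM, with overlapping strains and no call (0.15 ± 0.16, adjusted p = 0.784 by edgeR). In settings chosen after seeing the data, the Gag-Pol value was 0.39 without YER138C (adjusted p = 0.336, edgeR) and 0.053 without YHR214C-B (adjusted p = 0.943, edgeR). The Gag call was lost without tDNA-less 1 (0.70, adjusted p = 0.122), without tDNA-less 2 (0.45, adjusted p = 0.426), on the TPM scale (0.44) and when all Ty1 Gag frames of the tables, listed or not, were summed (0.37, adjusted p = 0.131).

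As a share of listed Ty1 TPM, Gag frames took 15.8% and 19.8% in the wild type and 20.04% and 24.7% in the tDNA-less strain. The means were 17.8% ± 2.89 (SD, n = 2) and 22.4% ± 3.30 (SD, n = 2), a difference of 4.57 percentage points. An exact two-sided permutation test gave p = 0.333, which is the smallest that 2 against 2 libraries allow. In Ty2 the Gag share was 21.8% and 25.8% against 24.7% and 22.9%, and the strains overlapped (difference 0.03 points, exact permutation p = 1). With 1 library left out the Ty1 difference ran from 2.24 to 6.91 points, over all Ty1 frames of the tables it was 1.85 points, and as a share of estimated counts 1.45 points. Since reads from the Gag part fit both frames in most elements, these shares describe the authors' division of reads and not protein or frameshift rates.

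The Ty2 sums depended on the chromosome III element. Ty2 Gag frames summed to 159 and 139 CPM in the wild type and to 138 and 121 CPM in the tDNA-less strain, and Ty2 Gag-Pol frames to 2568 and 1796 CPM against 1919 and 1829 CPM. Neither was called (Gag -0.20 ± 0.10, adjusted p = 0.437; Gag-Pol -0.22 ± 0.14, adjusted p = 0.579, edgeR). Leaving out the chromosome III element turned both values, to 0.80 for Gag (adjusted p = 0.003, edgeR) and 0.26 for Gag-Pol (adjusted p = 0.494, edgeR), a setting chosen after seeing the data. Without wild type 2 the Gag-Pol sum was called at -0.45 (adjusted p = 0.0187, edgeR), and without wild type 1 it was 0.053.

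Single frames differed widely within a class. Among the 20 Ty1 Gag-Pol units the mean level ran from 1.58 to 1175 TPM, with a median of 111 TPM and 12 units at 100 TPM or more. The 18 Ty1 Gag units ran from 0 to 448 TPM, with a median of 2.96 TPM. The 6 Ty2 Gag-Pol units ran from 5.68 to 162 TPM and the 6 Ty2 Gag units from 0 to 43.0 TPM. Of the 60 frames, 7 were listed at 0 in all libraries, namely YBL100W-A, YDR261C-C, YDR365W-A, YER137C-A, YIL082W-A, YJR026W and YML040W. YJR028W and YML045W-A stayed under 1 estimated count everywhere.

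**Figure D2:**
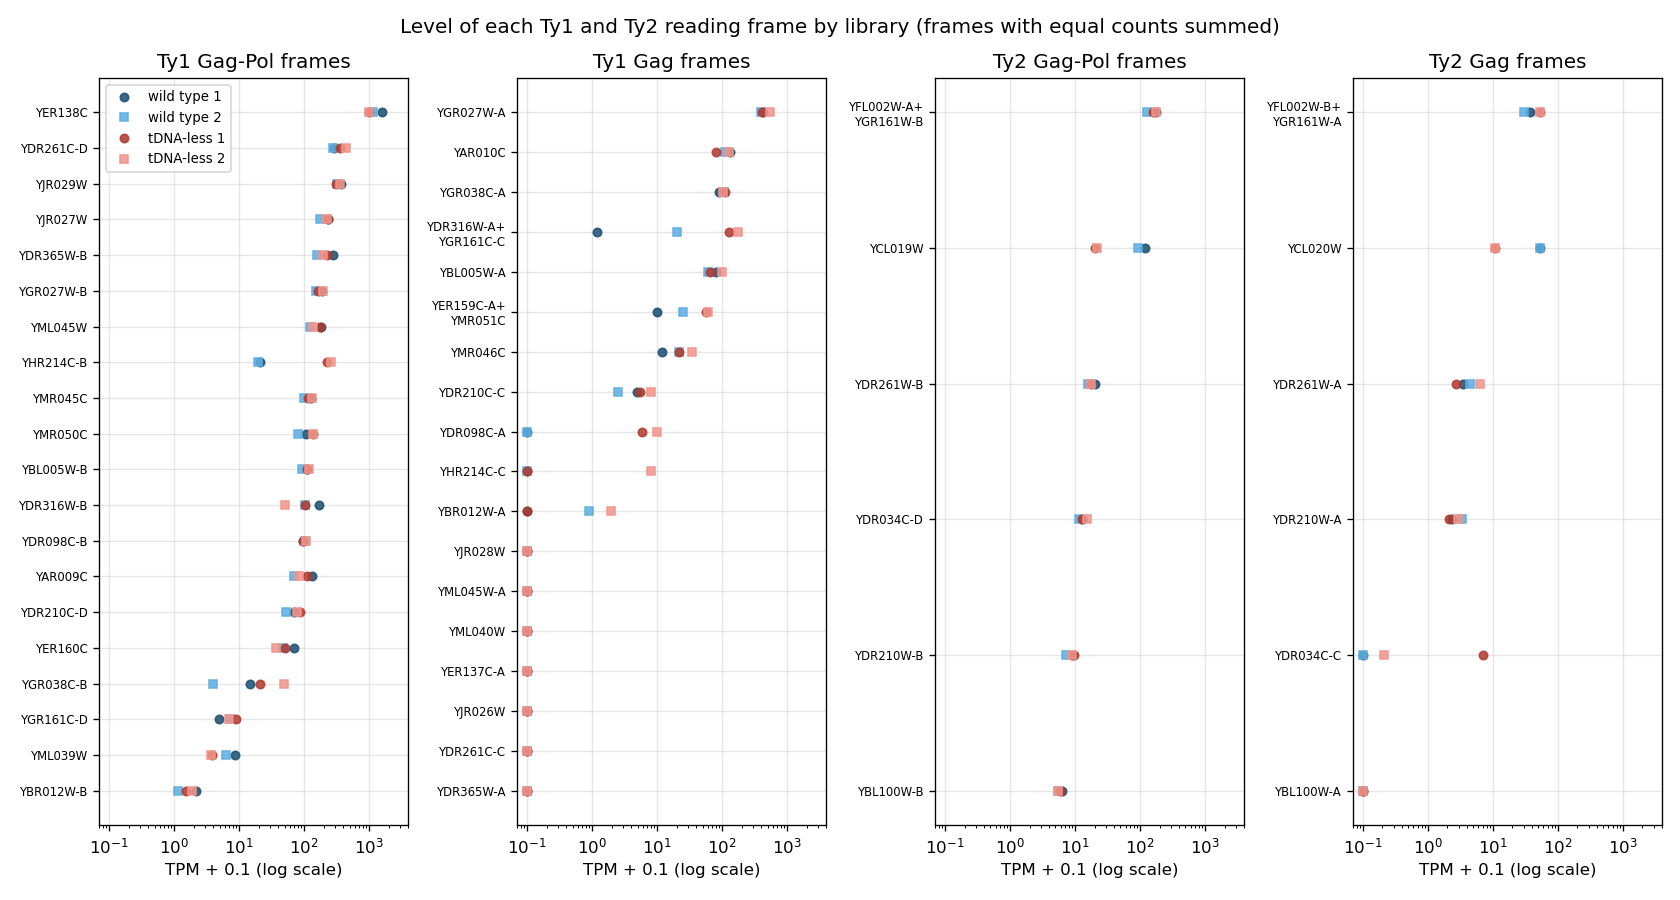
Level of each Ty1 and Ty2 unit (rows) as TPM plus 0.1 on a log axis, 1 point per library (circles replicate 1, squares replicate 2; blue wild type, red tDNA-less), ordered by mean level. The strains separate clearly in YHR214C-B, YCL019W, YCL020W, YDR316W-A+YGR161C-C and YDR098C-A, which is near 0 in the wild type, while YER138C is the highest row in every library.

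Of the 56 units, 43 passed the filter on low counts and 13 did not. In the tDNA-less strain 6 units rose and 3 fell (adjusted p under 0.05, edgeR), which is 20.9% of those tested, whereas 1.47% of all 6201 rows tested were called (0.774% higher and 0.693% lower). Their median log2 change was 0.24 against 0.00 over all rows. Both tDNA-less libraries lay above both wild type libraries in 19 units and below in 4, against 21.9% and 20.8% of all rows. Units passed the filter on their counts in either strain, and copies share reads, so these counts are a description and not separate observations. DESeq2 called 7 member units and limma-voom 9, where they called 1.87% and 1.52% of all rows. By edgeR, 14 units were higher without wild type 1 (0.765% of all rows), 3 without tDNA-less 1 (0.128%) and 3 without tDNA-less 2 (0.176%).

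**Figure D3:**
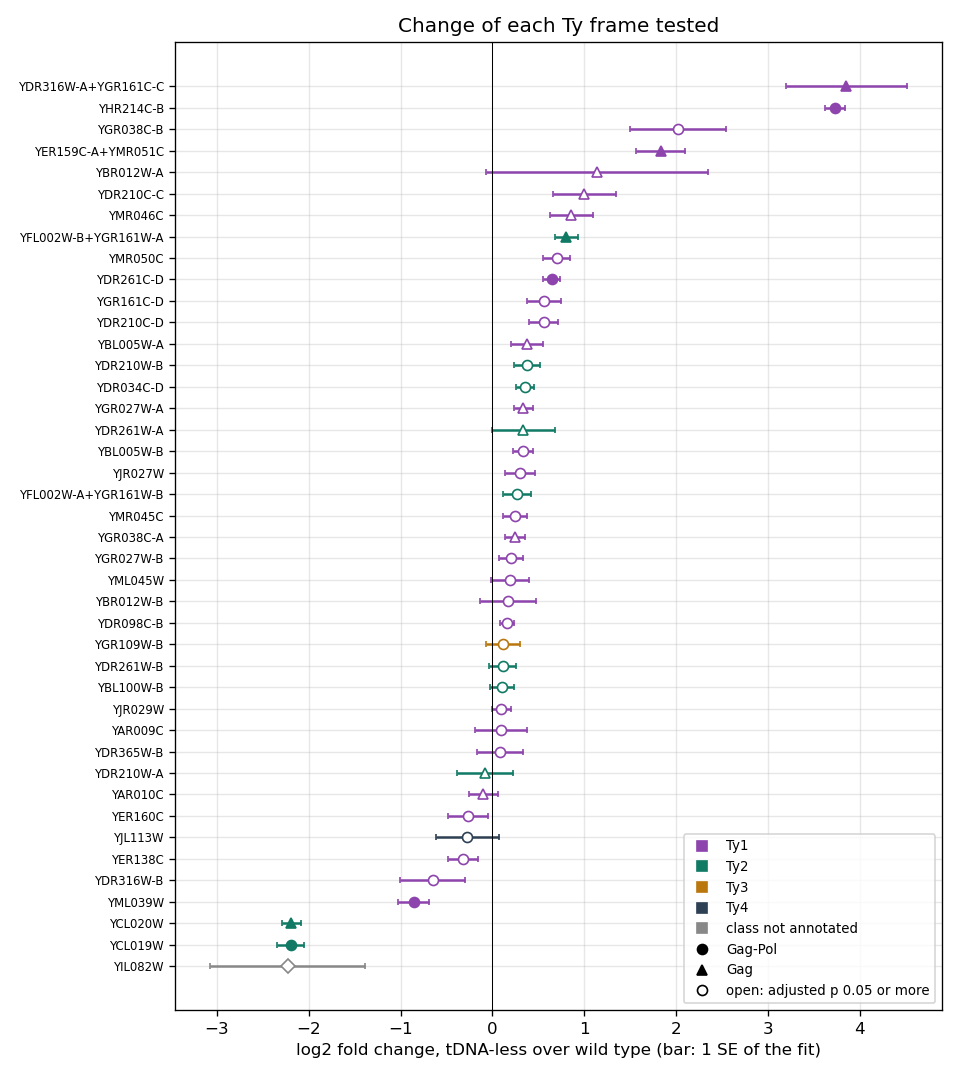
Log2 fold change of tDNA-less over wild type (horizontal axis) for each unit tested, with 1 SE derived from the edgeR test as the bar. Circles are Gag-Pol, triangles Gag, colours the class, and filled symbols are called. YDR098C-A, which was near 0 in the wild type, is left out. YHR214C-B stands at 3.73, YCL019W and YCL020W at -2.20 and -2.19, and most other units lie near 0.

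The clearest rise was that of YHR214C-B, the Gag-Pol frame of the chromosome VIII Ty1 element YHRCTy1-1 (chrVIII:543610-549637, minus strand). It stood at 158 and 133 CPM in the wild type and at 1911 and 1952 CPM in the tDNA-less strain. The strains did not overlap and the replicates of each lay close together, giving a 13.3-fold rise (log2 3.73 ± 0.11, adjusted p = 1.47e-07, edgeR). Its share of the TPM of listed Ty1 frames went from 0.438% and 0.504% to 5.06% and 5.44%. The call held in all 12 alternatives, with log2 changes of 3.53 to 3.85. The Gag frame of the same element, YHR214C-C, had 0 counts in both wild type libraries, 0.000548 in tDNA-less 1 and 215 in tDNA-less 2, and was not tested.

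The tested neighbours of the chromosome VIII element were not called. YHR214W, 1348 bp to one side, had a log2 change of -0.59 ± 0.22 (adjusted p = 0.289, edgeR). Farther on that side YHR213W-B had -1.27 ± 0.43 and YHR213W-A -0.80 ± 0.33 (adjusted p = 0.2465 and 0.3595, edgeR). On the other side YHR214C-E had 0.66 ± 0.42 (adjusted p = 0.594, edgeR). PHO12, an acid phosphatase gene 2462 bp to the other side, had 0.02 ± 0.10 (adjusted p = 0.968, edgeR). Among the 30 elements of listed frames this one lies farthest from a tRNA gene of the reference, at 67832 bp. For the 30 elements the median distance was 177.5 bp, and 24 lay within 1000 bp.

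The highest frame of all was YER138C, the Gag-Pol frame of a chromosome V Ty1 element. It stood at 11564 and 7876 CPM in the wild type and at 8379 and 7205 CPM in the tDNA-less strain, so the strains overlapped and no change was called (-0.32 ± 0.17, adjusted p = 0.496, edgeR). It took 32.8% and 30.5% of listed Ty1 TPM in the wild type and 22.7% and 20.5% in the tDNA-less strain. No 31-base word is special to its element. Without wild type 2 the change was -0.57 and was called (adjusted p = 0.0293, edgeR).

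Of the next 3 Ty1 Gag-Pol frames by level, 1 rose. YDR261C-D stood at 1929 and 1708 CPM in the wild type and at 2748 and 2941 CPM in the tDNA-less strain. The strains did not overlap, and the frame rose 1.56-fold (0.65 ± 0.09, adjusted p = 0.00874, edgeR). That call was lost without tDNA-less 1 (0.69, adjusted p = 0.254), without tDNA-less 2 (0.60, adjusted p = 0.322) and on the TPM scale (0.50, adjusted p = 0.273, limma). YJR029W stood at 2672 and 2176 CPM against 2584 and 2603 CPM (0.10 ± 0.11, adjusted p = 0.786, edgeR). YJR027W stood at 1734 and 1198 CPM against 1971 and 1638 CPM (0.30 ± 0.16, adjusted p = 0.507, edgeR). In both of these the strains overlapped.

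One low Ty1 Gag-Pol frame fell. YML039W stood at 62.8 and 42.7 CPM in the wild type and at 31.03 and 26.9 CPM in the tDNA-less strain, a drop with no overlap (-0.86 ± 0.17, adjusted p = 0.0452, edgeR). The call was lost with limma-voom (-0.81, adjusted p = 0.0796), on the TPM scale, and without wild type 1 (-0.57, adjusted p = 0.102), tDNA-less 1 (-0.96, adjusted p = 0.348) or tDNA-less 2 (-0.75, adjusted p = 0.512). The remaining 14 Ty1 Gag-Pol units, none of them called, ranged from -0.65 ± 0.35 in YDR316W-B to 2.02 ± 0.52 in YGR038C-B (adjusted p = 0.520 and 0.127, edgeR). YGR038C-B had 108 and 26.3 CPM in the wild type and 177 and 354 CPM in the tDNA-less strain, so its replicates stood well apart within each strain.

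Of the 10 Ty1 Gag units tested, 3 rose. YDR098C-A had 0.00 CPM in both wild type libraries and 10.8 and 16.6 CPM in the tDNA-less strain. Taking a floor of 3 counts per wild type library, it was at least 72.5-fold higher (adjusted p = 0.000149, edgeR), and it passed the count filter through the tDNA-less libraries alone, so this p is given as a description. YDR316W-A+YGR161C-C, a pair with equal counts, stood at 1.78 and 31.6 CPM against 235 and 293 CPM. The wild type replicates of this pair were far apart and the tDNA-less ones close (3.86 ± 0.66, adjusted p = 0.0205, edgeR).

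YER159C-A+YMR051C, likewise equal, stood at 16.7 and 38.7 CPM in the wild type and at 105 and 99.5 CPM in the tDNA-less strain, with no overlap (1.83 ± 0.27, adjusted p = 0.00903, edgeR). Both pairs lost their call with DESeq2 (adjusted p = 0.304 and 0.0577), without tDNA-less 1 (adjusted p = 0.254 and 0.226) and without tDNA-less 2 (adjusted p = 0.254 and 0.157). Without wild type 2 the log2 changes were 7.20 and 2.61, and without wild type 1 they were 3.06 and 1.39. None of these 3 units has a 31-base word special to its element.

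The 3 Ty1 Gag frames of highest mean level over all libraries were not called. YGR027W-A, the highest, stood at 711 and 623 CPM in the wild type and at 767 and 918 CPM in the tDNA-less strain, without overlap but not called (0.34 ± 0.11, adjusted p = 0.219, edgeR). YAR010C had the same counts in all libraries as YPR137C-A, a Ty1 Gag frame outside the list, and stood at 218 and 169 CPM against 150 and 209 CPM (-0.10 ± 0.16, adjusted p = 0.871, edgeR). YGR038C-A stood at 147 and 168 CPM against 204 and 169 CPM (0.24 ± 0.11, adjusted p = 0.417, edgeR). The other 4 Ty1 Gag units tested had log2 changes of 0.38 in YBL005W-A to 1.14 in YBR012W-A, none of them called.

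The clearest fall was that of both frames of the chromosome III Ty2 element YCLWTy2-1 (chrIII:84811-90769, plus strand). YCL019W, its Gag-Pol frame, stood at 887 and 631 CPM in the wild type and at 169 and 162 CPM in the tDNA-less strain. YCL020W, its Gag frame, stood at 88.9 and 81.9 CPM against 19.9 and 17.6 CPM. In both frames every tDNA-less library lay far below every wild type library. The log2 changes were -2.20 ± 0.14 (4.59-fold lower, adjusted p = 4.19e-05) and -2.19 ± 0.10 (4.56-fold lower, adjusted p = 2.98e-06), both by edgeR. Both calls held in all 12 alternatives, with ranges of -2.42 to -1.94 and -2.28 to -2.10. YCL019W took 27.0% and 26.1% of listed Ty2 TPM in the wild type and 6.62% and 6.84% in the tDNA-less strain.

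This element is the only one of the 30 on the chromosome whose tRNA genes were removed, and the reference places a tRNA-Leu gene 90 bp beyond its end and a tRNA-Glu gene 2278 bp before its start. The small frame YCL021W-A, between the tRNA-Glu gene and the element, stood at 77.2 and 82.8 TPM in the wild type and at 0.286 and 0.00 TPM in the tDNA-less strain (adjusted p = 2.98e-06, edgeR). LEU2, 555 bp beyond the element in the reference and an enzyme gene of leucine synthesis, had the levels given above (-1.12 ± 0.11, adjusted p = 0.000842, edgeR). Its row cannot tell this site from the LEU2 marker of the tDNA-less genotype, and the wild type carried a LEU2 mutation. None of the 8 frames plotted farther out was called by edgeR. KCC4, a bud-neck kinase gene 2536 bp away, had 0.20 ± 0.10 (adjusted p = 0.491) and NFS1, a cysteine desulfurase gene 2008 bp away, -0.02 ± 0.10 (adjusted p = 0.972). The genotype alleles, the tRNA gene and the element's surroundings cannot be told apart as the source of the lower level in these libraries.

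**Figure D4:**
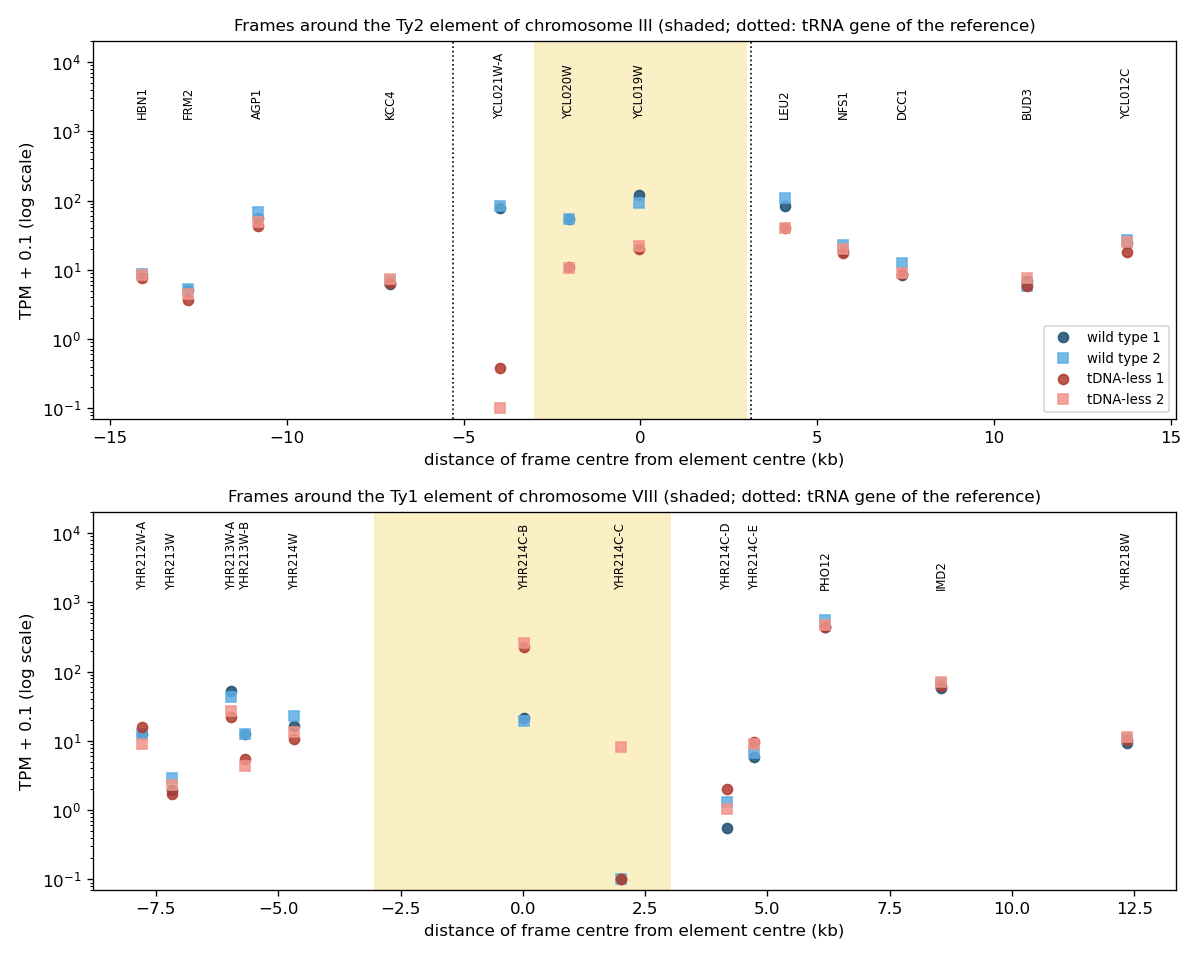
Level (TPM plus 0.1, log axis) of each frame around the chromosome III Ty2 element (top) and the chromosome VIII Ty1 element (bottom) against the distance of the frame's centre from the element's centre in kb. Each point is a library, the shaded band is the element and dotted lines are tRNA genes of the reference. In the top panel the strains separate at YCL021W-A, YCL020W, YCL019W and LEU2, and in the bottom panel most at YHR214C-B. LEU2, also a marker of the tDNA-less genotype, is drawn at its reference position.

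Of the other Ty2 frames, 1 Gag unit rose. YFL002W-B+YGR161W-A, a pair with equal counts, stood at 60.7 and 46.0 CPM in the wild type and at 96.6 and 88.4 CPM in the tDNA-less strain, without overlap (0.80 ± 0.12, adjusted p = 0.0113, edgeR). The call was lost without tDNA-less 1 (0.73, adjusted p = 0.293), without tDNA-less 2 (0.86, adjusted p = 0.157) and on the TPM scale (0.66, adjusted p = 0.130, limma). The Gag-Pol frames of the same elements, YFL002W-A+YGR161W-B, are the highest of Ty2 and stood at 1326 and 893 CPM against 1362 and 1317 CPM (0.27 ± 0.15, adjusted p = 0.527, edgeR). Those strains overlapped, though without wild type 1 the change was called at 0.58 (adjusted p = 0.0112, edgeR).

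The lower Ty2 frames were not called. YDR261W-B stood at 151 and 109 CPM in the wild type and at 151 and 129 CPM in the tDNA-less strain (0.11 ± 0.14, adjusted p = 0.829, edgeR). YDR034C-D stood at 93.2 and 78.3 CPM against 107 and 112 CPM (0.36 ± 0.10, adjusted p = 0.152, edgeR), and without wild type 1 it was called at 0.48 (adjusted p = 0.0495, edgeR). The first of these overlapped between strains and the second did not. The Gag frames YDR261W-A and YDR210W-A stood at 3.70 to 10.5 CPM, with log2 changes of 0.34 ± 0.34 and -0.08 ± 0.30. YDR034C-C had under 1 count in both wild type libraries, 146 in tDNA-less 1 and 2.78 in tDNA-less 2, and was not tested.

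Ty3 and Ty4 frames were low in every library. YGR109W-B, the Ty3 Gag-Pol frame, stood at 22.8 and 15.8 CPM in the wild type and at 18.9 and 22.2 CPM in the tDNA-less strain (0.11 ± 0.18, adjusted p = 0.872, edgeR). YJL113W, the Ty4 Gag-Pol frame, stood at 8.60 and 4.39 CPM against 5.64 and 4.88 CPM (-0.27 ± 0.34, adjusted p = 0.822, edgeR). In both frames the strains overlapped. The Gag frames YGR109W-A and YJL114W had at most 1.73 and 1.51 estimated counts in a library and were not tested, and YIL082W-A was listed at 0. YIL082W stood at 5.76 and 7.20 CPM against 2.997 and 0 CPM, lower in both tDNA-less libraries but not called (-2.23 ± 0.84, adjusted p = 0.313, edgeR); without tDNA-less 1 it was called (adjusted p = 0.0146).

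Summing the Gag and Gag-Pol frames of an element, an alternative chosen after seeing the data, removes the division of reads between its frames. Of the 28 element rows tested, 5 rose and 2 fell, against 1.45% of all rows called in that fit. YHRCTy1-1 rose by 3.74 ± 0.11 (adjusted p = 3.2e-08, edgeR) and YCLWTy2-1 fell by 2.20 ± 0.13 on the log2 scale (adjusted p = 1.21e-05, edgeR), each close to its Gag-Pol value. YGRCTy1-3, which holds YGR161C-C, stood at 36.7 and 64.0 CPM in the wild type and at 193 and 198 CPM in the tDNA-less strain (1.93 ± 0.19, adjusted p = 0.000595, edgeR). YGR161C-C carries an equal share of its pair's counts, and the Gag-Pol frame of the element, YGR161C-D, was not called (0.57 ± 0.18, adjusted p = 0.240, edgeR), so which element of the pair differed cannot be told apart. YGRCTy1-2, which holds YGR038C-B, stood at 254 and 194 CPM against 381 and 523 CPM (1.02 ± 0.15, adjusted p = 0.00794, edgeR).

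Smaller element rises were those of YMRCTy1-4 (0.74 ± 0.14, adjusted p = 0.0277) and YDRCTy1-3 (0.65 ± 0.10, adjusted p = 0.00729), and YMLWTy1-2 fell (-0.86 ± 0.17, adjusted p = 0.0351), all by edgeR. YMRCTy1-4 holds YMR051C of the equal pair above, with the same limit. Other Gag rises did not appear in their element. YDRCTy1-1, which holds YDR098C-A, stood at 716 and 691 CPM in the wild type and at 809 and 790 CPM in the tDNA-less strain (0.18 ± 0.08, adjusted p = 0.386, edgeR). YDRWTy1-4, which holds YDR316W-A, had -0.38 ± 0.29 (adjusted p = 0.659, edgeR), and YERCTy1-2, which holds YER159C-A, had -0.11 ± 0.20 (adjusted p = 0.885, edgeR).

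Outside the list the tables held 32 further Ty frames, of which 20 were tested. One of them was called, the Ty1 Gag frame YPR158C-C, at 102 and 84.2 CPM in the wild type and 141 and 132 CPM in the tDNA-less strain (0.56 ± 0.10, adjusted p = 0.0310, edgeR). Its call was lost on the TPM scale (0.42) and without wild type 2 (0.42, adjusted p = 0.104), tDNA-less 1 (0.50, adjusted p = 0.462) or tDNA-less 2 (0.60, adjusted p = 0.267). The median log2 change of the 20 was 0.25, beside 0.24 in the listed units.

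Host genes known to act on Ty elements were read as 5 lists of 72 genes, all of them tested. The lists were Ty1 transcription factors, RNA decay and export factors, pheromone and MAP kinase signalling, factors that restrict transposition, and integration targets and chromatin at RNA polymerase III genes. In edgeR's test 0 of the 72 were called and 6 had an unadjusted p under 0.05, which is 8.33% against 11.9% of all rows tested; DESeq2 and limma-voom called 0 as well. Their median log2 change was 0.03, and they ranged from -0.31 in HOS2, a histone deacetylase subunit, to 0.38 in DIG2, an inhibitor of the pheromone-responsive transcription factor Ste12. In the other lists the values of largest size were 0.31 in SPT21 and 0.30 in SWI4, which act in histone gene and cell-cycle transcription, 0.22 in NMD2 and 0.16 in XRN1, which act in RNA decay, and 0.24 in RTT106 and -0.24 in RRM3, a histone chaperone and a DNA helicase. KSS1, a MAP kinase of filamentous growth, had -0.17, and RPC37, an RNA polymerase III subunit, had -0.29.

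Promoter letters are shown for the elements that moved most, each beside another copy of its class, because Ty1 transcription is known to use the factors Tec1 and Ste12. Windows of 300 bases, 250 before the Gag start codon and 50 after it, were searched on both strands for CATTCC and, as the other form of the Tec1 motif, CATTCT. The Ste12 motif was searched as TGAAACA and the TATA box as TATAAA. No matches overlapped in the listed Gag windows. The pieces below run from 150 to 91 bases before the start codon, with matches in capitals on either strand, at chrVIII:549437-549496 (minus), chrV:449115-449174 (minus), chrIII:84952-85011 (plus) and chrVI:138054-138113 (plus) of R64.
YHR214C-C (Ty1): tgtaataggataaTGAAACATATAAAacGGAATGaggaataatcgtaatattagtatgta
YER137C-A (Ty1): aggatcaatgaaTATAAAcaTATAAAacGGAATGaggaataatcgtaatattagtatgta
YCL020W (Ty2): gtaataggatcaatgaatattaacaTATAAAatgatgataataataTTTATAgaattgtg
YFL002W-B (Ty2): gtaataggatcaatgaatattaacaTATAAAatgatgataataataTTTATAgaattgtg
Tec1 letters were in 14 of 20 Ty1 and 5 of 7 Ty2 windows, and in 28.2% of the 6021 windows of all frames. Ste12 letters were in 6 of 20 Ty1 windows, in no Ty2 window and in 7.46% of all windows, and TATAAA was in all 27 Ty1 and Ty2 windows and in 45.4% of all. Besides YHR214C-C, the Ty1 windows with Ste12 letters were those of YBL005W-A, YBR012W-A, YGR161C-C, YML045W-A and YMR046C. Of the elements of these frames, only YGRCTy1-3, which holds YGR161C-C, was called. All 14 Ty1 windows with Tec1 letters had a Tec1 match before the start codon, whereas the 5 Ty2 matches lay inside the Gag frame. YCL020W was 1 of the 2 Ty2 windows without one and had 3 TATAAA matches, where YFL002W-B had a match and 2 TATAAA. The pieces printed are parts of these windows. A match is a string of letters and not a bound site.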

How the data were processed

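RNA-seq of 2 strains with 2 libraries each was deposited as 1 table per library. Per the submitters' processing notes kallisto, sleuth and the sacCer3 build were used; the sources used here give no version, index or strand setting. The deposited estimated counts, which need not be whole, are the authors' division of reads among similar frames, and the deposited TPM values are the authors' length-scaled levels. The submitters' labels call the libraries biological replicates.

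Estimated counts were rounded, frames with equal counts in all libraries were summed, and rows passing edgeR's filterByExpr (minimum count 10) were fitted with edgeR 4.0.16 quasi-likelihood (TMM scaling, R 4.3.3), with Benjamini-Hochberg adjustment over all rows. The fit was tested on simulated data. Each SE of a log2 change was derived from the test, as the absolute log2 change divided by the square root of its F statistic. Class sums replaced their frames in a separate fit. Alternatives were DESeq2 1.42.0, its size factors, limma 3.58.1 (voom, and log2 of TPM plus a pseudocount of 1), no filter, a minimum mean count of 50, the 4 largest rows removed, a replicate block and each library left out. Replicate numbers did not pair libraries by the labels. A 31-base word is a run of 31 bases in the coding sequences of R64. Leaving out a library assumes that the lone one varies like the other strain.

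Named frames were every called member, the 4 of highest mean TPM of each frame kind in Ty1 and Ty2, every Ty3 and Ty4 frame, both chromosome III frames and, of the host lists, every called gene and the 2 of largest change per list; HIS3 and LEU2 checked labels. Frames named for their neighbourhood, their element or the end of a range were chosen after their values were seen. The members and lists were chosen with earlier results of these data known. Precision is limited by 2 libraries per strain and totals of 12478934 to 19756815 counts; the floor of 3 counts covers counting error only.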

Additional observations from a re-analysis of the deposited data

How the results depend on the processing

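Calls of YHR214C-B, YCL019W, YCL020W and the chromosome III element (-2.20 in the test as reported) held in every alternative run. The number of member units higher (6) became 15 with a replicate block and 3 to 14 with a library left out, and the number lower (3) became 7 with the replicate block and 1 with the members of largest change left out. Same-numbered libraries deviated together only weakly (correlation 0.24 over all rows), so the numbers were not taken as pairs. Other Ty frames higher (1) became 3 with DESeq2, 0 on the TPM scale, 9 with the replicate block and 0 to 6 with a library left out, and lower ones (0) 0 to 2. The median of all rows was -0.11 on the TPM scale, so values there read against it.

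With a library left out, Ty1 sums ranged from -0.056 to 0.44, and with the replicate block the value was 0.19 and called (adjusted p = 0.0338, edgeR). Ty1 Gag-Pol ranged from -0.087 to 0.42, and Ty1 Gag from 0.45 to 0.70, with 0.44 on the TPM scale and 0.37 over all Ty1 Gag frames. The difference in Ty1 Gag share was 1.45 points of estimated counts. Ty2 sums ranged from -0.44 to 0.041 and were 0.29 without the chromosome III frames. Ty2 Gag-Pol ranged from -0.45 to 0.053 and was 0.26 without YCL019W, and Ty2 Gag was 0.80 without YCL020W. Ty3 was -0.020 on the TPM scale and -0.14 to 0.38 with a library left out, and Ty4 -0.68 to 0.28.

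Uncalled frames turned sign on the TPM scale (YDR261W-B -0.023, YGR109W-B -0.027, YJR029W -0.040) or with a library left out. The latter ranged from -0.36 to 0.11 in YAR010C, -0.27 to 0.16 in YDR210W-A, -0.36 to 0.77 in YDR261W-A, -0.11 to 0.35 in YDR261W-B, -0.14 to 0.37 in YGR109W-B, -0.71 to 0.25 in YJL113W and -0.043 to 0.25 in YJR029W. The cause was not tested. Precision is limited by 2 libraries per strain, and how many reads told single copies apart was not examined.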
